A study of Mus musculus with 7 samples.

Results

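The nuclear-encoded subunits of the respiratory chain and the ATP synthase were examined in cells labelled as the mouse endothelial line MS-1, with and without overexpression of lipoprotein lipase (LPL), the enzyme that frees fatty acids from circulating triglyceride. Members were the genes with symbols of the Nduf (a, b, c, s and v), Sdh, Uqcr, Cox (4 to 8) and Atp5 families, pseudogenes named as such being left out. The rule found 84 of the 49585 genes listed, namely 37 of complex I, 4 of complex II, 8 of complex III, 18 of complex IV and 17 of complex V. RNA was sequenced from 4 libraries whose genotype label is LPL overexpression and from 3 control libraries with a WT genotype label. All 7 are labelled as MS-1 cells grown in DMEM, and the labels name no other agent or allele. The labels give neither the origin of the introduced LPL nor how it was introduced, and they name no vector control. Nor do they call the replicates separate cultures, so the p-values here cover the spread among these libraries alone, which may be technical.

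Complexes I and II pass electrons from NADH and succinate to ubiquinone, complex III passes them to cytochrome c, and complex IV hands them to oxygen. Complexes I, III and IV pump protons across the inner mitochondrial membrane as they work, and complex V, the ATP synthase, uses the returning protons to make ATP. Most subunits are encoded in the nucleus and imported, while a smaller set, including catalytic subunits of complexes I, III and IV, is encoded by mitochondrial DNA. Endothelial cells are known to draw much of their ATP from glycolysis, and their respiratory chain is known to serve redox balance and biosynthesis.

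Counted reads in sense orientation numbered 24328418 to 29210847 per LPL overexpression library and 26514501 to 28104402 per control library. Lpl itself had 10867, 12691, 10901 and 12753 counts in the 4 LPL overexpression libraries, against 1, 1 and 6 in the 3 control libraries. All 10 endothelial markers, among them Pecam1, Cdh5 and Kdr, were present in every library, and their summed level was 5169 to 5342 CPM (counts per 1000000 counted reads, scaled by the TMM factors of edgeR) in LPL overexpression libraries, against 6259 to 6382 CPM in control libraries. Of these markers 7 were lower and 1 higher, with log2 fold changes, LPL overexpression over control, of -0.62 for Plvap, -0.40 for Pecam1 and -0.34 for Kdr. Markers of pigment cells differed far more: all 10 of 10 were higher, with a summed level of 1342 to 1405 CPM in LPL overexpression libraries and 3.19 to 3.76 CPM in control libraries. Tyrp1, Dct, Mlana, Tyr, Sox10 and Oca2, which define that lineage, had no read in any control library. These marker levels separate the groups completely, so a difference between the cells themselves cannot be told apart from LPL overexpression in any comparison of subunit genes given here. In RNA from whole cultures, fewer cells of a type and less RNA per cell cannot be told apart.

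Where subunit genes differed between the groups, most were slightly higher with LPL overexpression. Of the 84 members, 76 had enough reads to be tested. Of these, 28 (36.8%) were higher with LPL overexpression at an edgeR adjusted p under 0.05, 3 (3.95%) were lower and 45 did not pass. Over all 13639 genes tested, 43.2% passed in either direction, with 21.9% (2988) higher and 21.3% (2900) lower. With scaling by library size alone that split was 3941 higher and 2112 lower, and with limma on log2(TPM + 0.5) it was 3304 higher and 2082 lower. The share of members passing in either direction was 40.8%, near that of all genes, and most of it lay on the higher side. The log2 fold change was above 0 in 60 of the 76 members and its median was 0.049, against 0.0024 over all genes tested. Libraries of the 2 groups did not overlap in 37 of the 76 members, and in 44.6% of all genes tested.

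The sizes of these differences were modest. The largest was that of Sdhb, 1.21-fold, and the smallest difference called higher was 1.04-fold. Among all genes tested, 23.0% had a larger absolute log2 fold change than Sdhb, as did 40.0% of the genes that passed. The median absolute log2 fold change was 0.12 for the 31 members that passed and 0.22 for all 5888 genes that passed. The standard error of a member's log2 fold change had a median of 0.032, and it was under 0.05 in 40 of the 45 members that did not pass. Of the 28 calls higher, 16 held in all 15 alternative settings, which change the scaling, the filter, the test or the reads counted or leave out 1 library, whereas 0 of the 3 calls lower did. LPL overexpression replicate 4 stands apart from its group in Irf1, an interferon-induced factor, with 286 CPM against 19.2, 20.7 and 21.9 CPM in LPL overexpression replicates 1 to 3 and 22.2, 22.5 and 21.9 CPM in control replicates 1 to 3. Without that library 27 members were higher and 2 lower. Without control replicate 1 the count of higher members was 19, and without control replicate 2 it was 20. The count of lower members was 1 without LPL overexpression replicate 3, and also 1 without control replicate 3.

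**Figure D1:**
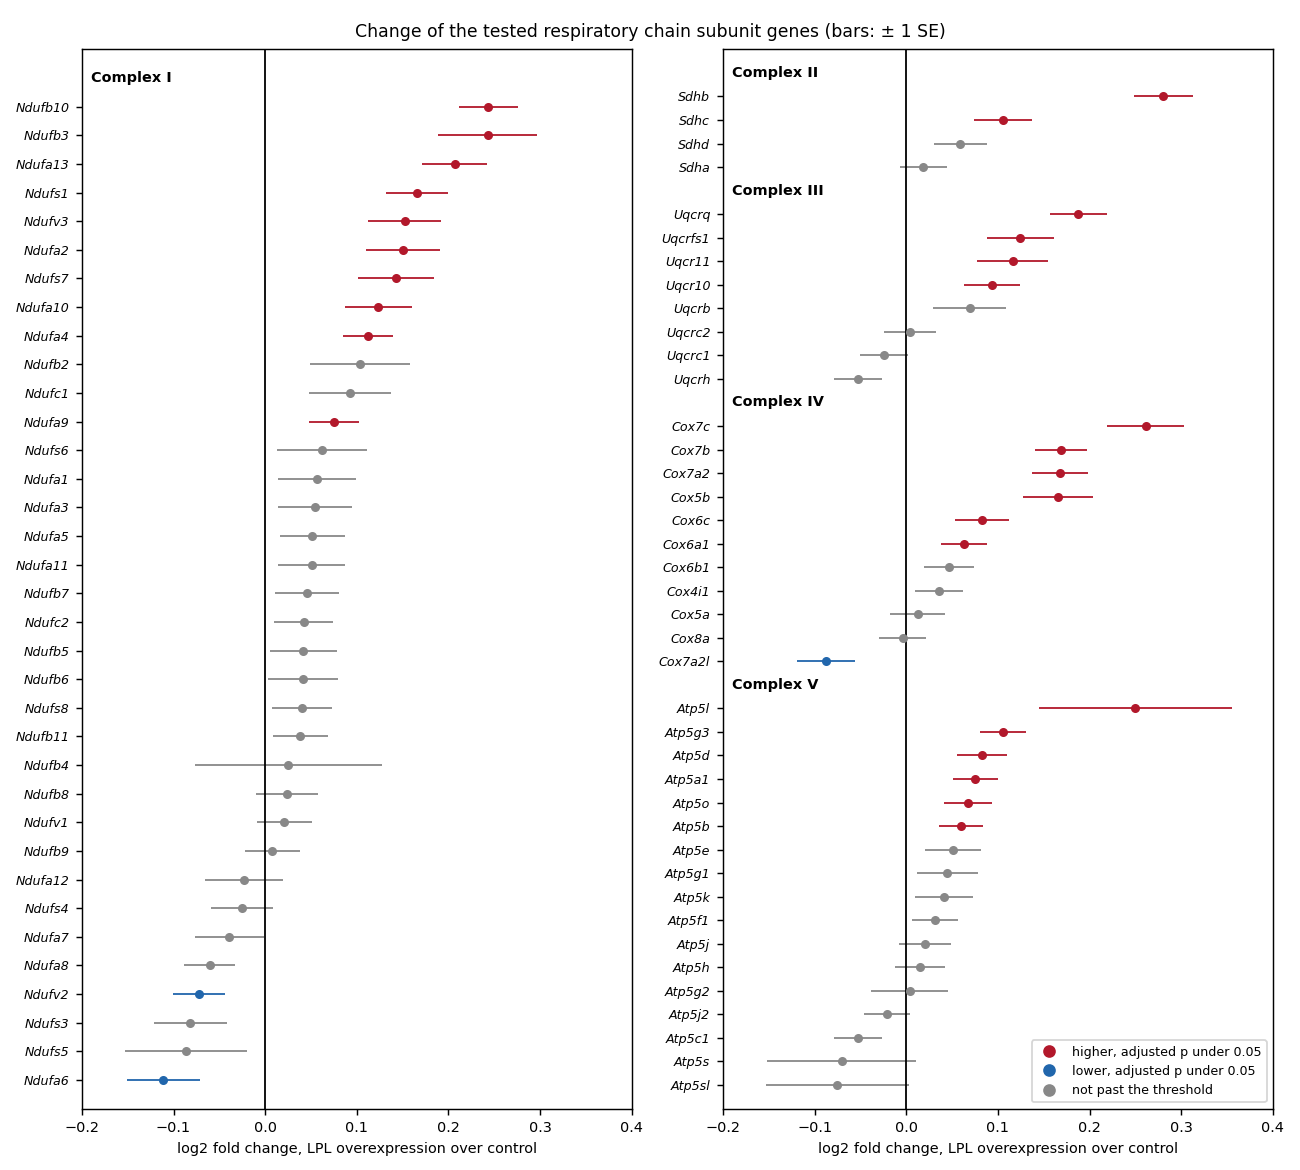
Log2 fold change (x axis, LPL overexpression over control, n = 4 and n = 3) of 75 of the 76 tested subunit genes, grouped by complex and ordered by size, with bars of 1 standard error. Points past the threshold are coloured; 28 lie to the right of 0 and 3 to the left, and none is beyond 0.28.

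Summed over the members of each complex, the mean RNA level was higher in the LPL overexpression libraries by a few percent. The amounts of the protein complexes were not measured. Complex I genes summed to 2603 ± 33.2 CPM in LPL overexpression libraries and 2519 ± 30.6 CPM in control libraries (mean ± SD, n = 4 and n = 3). Complex II genes summed to 547 ± 11.8 CPM with LPL overexpression and 515 ± 2.19 CPM in controls. For complex IV the sums were 1510.1 ± 9.31 CPM with LPL overexpression and 1452 ± 20.3 CPM in controls, and for complex V they were 4032 ± 55.1 CPM with LPL overexpression and 3905 ± 53.0 CPM in controls. In these 4 complexes every LPL overexpression library lay above every control library. On this scale complex III was the exception, with 935 ± 10.6 CPM in LPL overexpression libraries and 911 ± 23.5 CPM in control libraries, where control replicate 3 lay above LPL overexpression replicates 1, 3 and 4. All 84 genes together summed to 9627 ± 107 CPM with LPL overexpression, 3.50% above the 9301 ± 109 CPM of the controls. On the TPM (transcripts per 1000000) scale, which divides by gene length, they made up 1.99% to 2.02% of each LPL overexpression library and 1.90% to 1.91% of each control library, a difference of 5.28% between the means. As a share of counted reads without TMM scaling they made up 0.973% with LPL overexpression and 0.915% in controls, which is 6.37% higher, so the size depends on the scaling. Summed TPM of complex III was 2227 ± 23.0 with LPL overexpression and 2101 ± 44.9 in controls, without overlap.

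**Figure D2:**
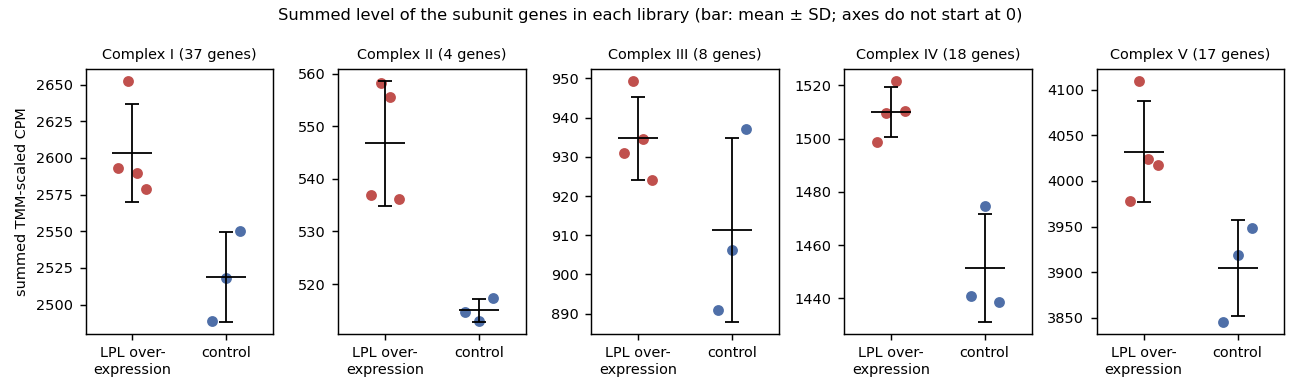
Summed TMM-scaled CPM (y axis, not starting at 0) of the genes of complexes I to V in each library, LPL overexpression on the left and control on the right, with the mean and SD as bars. The groups are apart in complexes I, II, IV and V and overlap in complex III.

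Most subunit genes were abundant in both groups. Mean TPM lay above the median of all genes tested in 71 of the 76 tested members. Cox8a, a small subunit of complex IV, was the highest at 1719 ± 41.9 TPM with LPL overexpression and 1692 ± 51.2 TPM in controls. Atp5b, the catalytic beta subunit of ATP synthase, came second at 1082 ± 8.71 TPM with LPL overexpression and 1019 ± 6.34 TPM in controls, followed by Cox6a1 at 992 ± 15.3 TPM with LPL overexpression and 931 ± 9.67 TPM in controls. The difference between Atp5b and Cox6a1 was larger than the spread between libraries in both groups. The highest of complex I was Ndufb9 at 496 ± 5.20 TPM with LPL overexpression and 485 ± 12.6 TPM in controls, followed by Ndufa4 at 478 ± 7.03 TPM with LPL overexpression and 434 ± 17.8 TPM in controls. These levels per length are descriptions and were not tested between genes. Their order depends on the exonic lengths used by the authors, such as 4237 bases for Atp5b and 545 for Cox8a. In CPM Atp5b was above Cox8a, at 1379 ± 15.2 with LPL overexpression and 1323 ± 16.6 in controls. Cox8a was at 282 ± 7.28 CPM with LPL overexpression and 282 ± 6.89 CPM in controls. Ndufb2 was the lowest of complex I at 11.3 ± 0.349 TPM with LPL overexpression and 10.3 ± 0.423 TPM in controls, and its TPM was computed by the authors over an exonic length of 5628 bases, which lowers a value per length. Sdhd led complex II at 349 ± 11.6 TPM with LPL overexpression and 329 ± 7.59 TPM in controls, above Sdha at 199 ± 5.53 TPM with LPL overexpression and 193 ± 3.23 TPM in controls, Sdhb at 148 ± 4.02 TPM with LPL overexpression and 119.8 ± 2.17 TPM in controls and Sdhc at 87.5 ± 0.886 TPM with LPL overexpression and 79.8 ± 1.69 TPM in controls. The lowest tested member in TPM was Atp5l, a membrane subunit of ATP synthase, at 2.66 ± 0.237 TPM with LPL overexpression and 2.20 ± 0.237 TPM in controls. Its exonic length of 6443 bases likewise lowers a value per length.

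**Figure D3:**
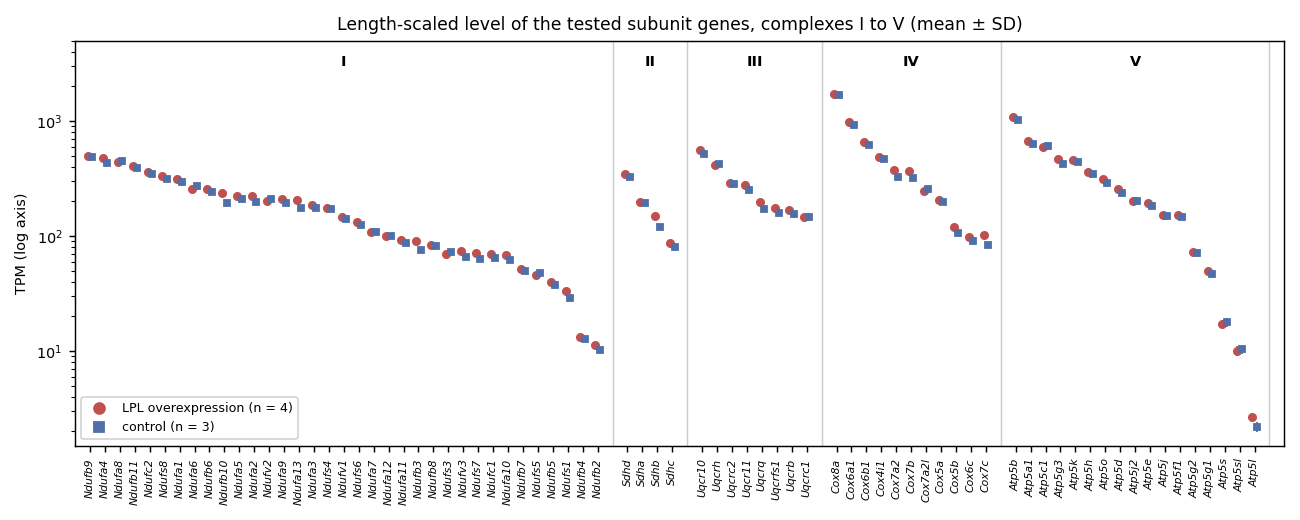
TPM (y axis, log scale) of 75 of the 76 tested subunit genes in LPL overexpression (circles, n = 4) and control (squares, n = 3) libraries, mean and SD, ordered by level within complexes I to V. Levels run from 2.46 TPM for Atp5l to 1707 TPM for Cox8a over all 7 libraries, and the groups lie close together for each gene drawn.

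Complex I, the NADH dehydrogenase and the largest of the complexes, had 10 members higher (27.8%) and 2 lower (5.56%) among 36 tested. Its counts, median and sums follow the gene names, so they include Ndufa4, which was higher and is now assigned to complex IV. Over all genes tested, 21.9% were higher and 21.3% lower. The median log2 fold change of complex I members was 0.044. Ndufb10, an accessory subunit of the distal membrane arm (chromosome 17, 24722060 to 24724478, minus strand), had 85.4, 86.5, 89.5 and 84.6 CPM in LPL overexpression replicates 1 to 4, against 72.6, 72.5 and 74.1 CPM in control replicates 1 to 3. Every LPL overexpression library was above every control library, and the log2 fold change was 0.24 ± 0.033 (SE), edgeR adjusted p 1.21e-08. Ndufb3, also of the membrane arm, had 20.3, 21.1, 22.4 and 20.001 CPM with LPL overexpression and 17.9, 18.1 and 17.1 CPM in the controls. Again the groups did not overlap, with a log2 fold change of 0.24 ± 0.054 (SE), edgeR adjusted p 2.18e-04. Ndufa13, an accessory subunit also known as GRIM-19, had 78.1, 79.3, 77.8 and 77.0 CPM with LPL overexpression and 66.5, 64.7 and 71.8 CPM in controls. Here too every LPL overexpression library was higher, by a log2 fold change of 0.21 ± 0.035 (SE), edgeR adjusted p 2.40e-06. These 3 calls held under all 15 alternative settings.

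The 7 core subunits of complex I encoded in the nucleus carry its flavin and iron-sulfur clusters. Of them 2 were higher (28.6%) and 1 was lower (14.3%), against 21.9% and 21.3% of all genes tested. The 28 accessory subunits tested gave 7 higher (25.0%) and 1 lower (3.57%). Ndufs1, the large iron-sulfur subunit of the NADH-oxidizing arm (chromosome 1, 63143596 to 63176833, minus strand), had 78.2, 82.0, 81.0 and 81.7 CPM in LPL overexpression libraries and 71.3, 70.1 and 74.7 CPM in control libraries. Ndufs1 showed no overlap and a log2 fold change of 0.17 ± 0.034 (SE), edgeR adjusted p 5.02e-05. The other core subunit that rose was Ndufs7, named after its values were seen, with 36.7 ± 1.29 CPM with LPL overexpression and 33.2 ± 1.09 CPM in controls and a log2 fold change of 0.14 ± 0.041 (SE), edgeR adjusted p 0.00385. Ndufv2, which carries an iron-sulfur cluster next to the flavin, was the core subunit called lower: it had 121, 126, 118 and 121 CPM with LPL overexpression and 126, 132 and 125 CPM in controls. These libraries overlapped, and the log2 fold change was -0.072 ± 0.028 (SE), edgeR adjusted p 0.0353. The Ndufv2 call was lost in 10 of 15 alternatives, among them those without LPL overexpression replicate 1, 3 or 4 or control replicate 2 (highest edgeR adjusted p 0.372, with scaling by library size alone).

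Ndufa6, an accessory subunit of the LYR-motif family that binds the mitochondrial acyl carrier protein, was the other complex I gene called lower. Its levels were 43.7, 44.7, 41.8 and 42.7 CPM with LPL overexpression and 46.4, 45.8 and 48.0 CPM in the control libraries. They did not overlap, and the log2 fold change was -0.11 ± 0.040 (SE), edgeR adjusted p 0.0196. That call was lost in 5 alternatives, including those without LPL overexpression replicate 3 or control replicate 3, with an edgeR adjusted p of up to 0.141. Ndufb9, the most abundant complex I member in TPM and likewise an LYR-motif protein, was at 97.2 ± 1.07 CPM with LPL overexpression and 96.7 ± 2.16 CPM in controls, and its log2 fold change of 0.0077 ± 0.030 (SE), edgeR adjusted p 0.862 did not pass. Ndufb2, the lowest in TPM though not in CPM, was at 19.1 ± 0.640 CPM with LPL overexpression and 17.7 ± 0.617 CPM in controls with a log2 fold change of 0.10 ± 0.055 (SE), edgeR adjusted p 0.123. Ndufa4, first described as a complex I subunit and now assigned to complex IV, rose, with 198, 196, 202 and 198 CPM in LPL overexpression libraries and 178, 193 and 180.4 CPM in controls. The Ndufa4 groups did not overlap, and the log2 fold change was 0.11 ± 0.027 (SE), edgeR adjusted p 5.26e-04. Across the 24 complex I members that did not pass, log2 fold changes ran from -0.086 to 0.10.

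**Figure D4:**
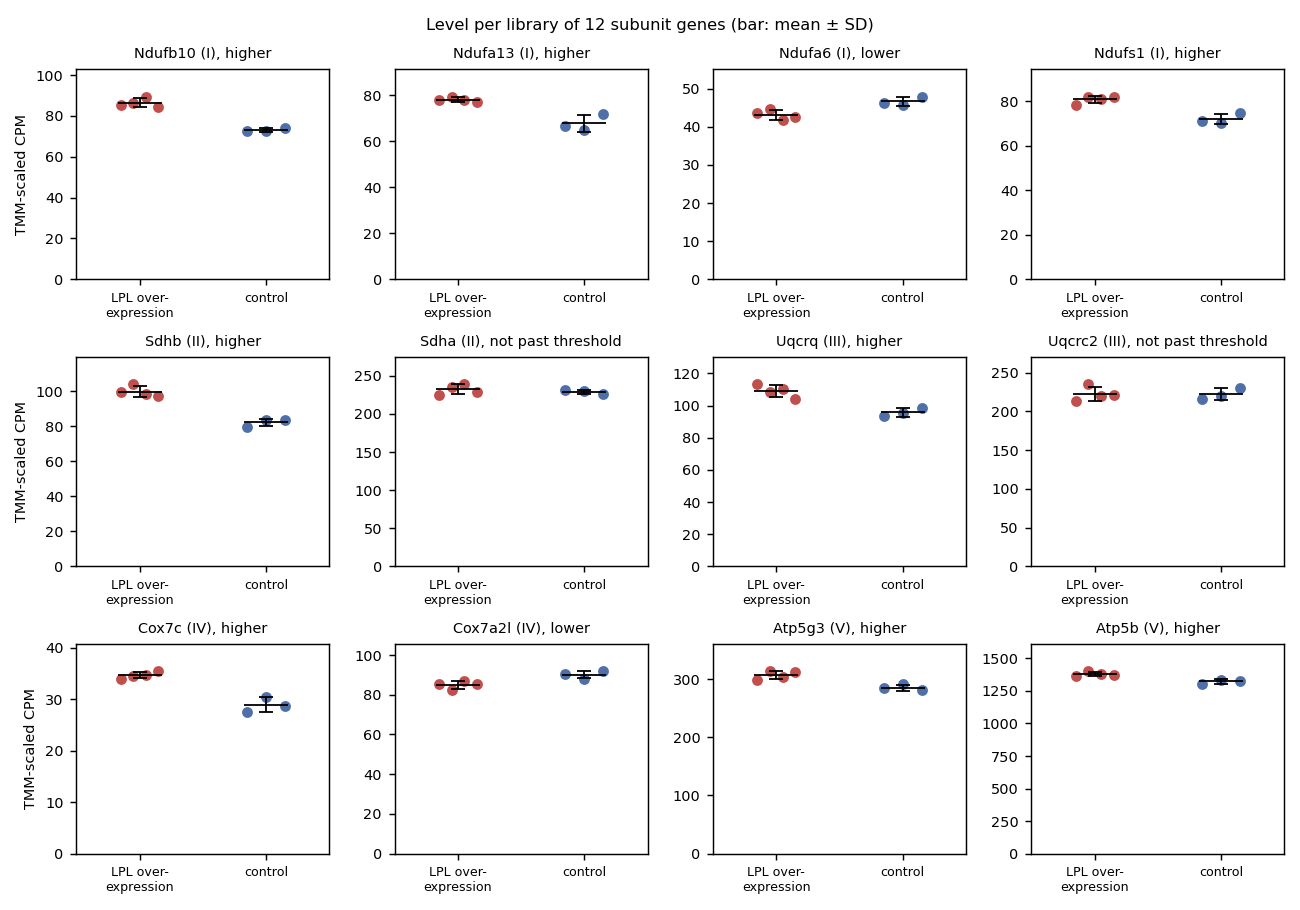
TMM-scaled CPM (y axis, starting at 0) in each library for 12 subunit genes of complexes I to V, LPL overexpression on the left and control on the right, with the mean and SD as bars. Sdhb, Ndufb10 and Cox7c are the most clearly raised of those drawn, and Sdha and the core protein Uqcrc2, chosen after its values were seen, lie level between the groups.

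Complex II, succinate dehydrogenase, links the TCA cycle to the respiratory chain and is wholly nuclear-encoded. Of its 4 subunits, Sdhb and Sdhc were higher, and Sdhd and Sdha did not pass. Among all genes tested, 21.9% were higher and 21.3% lower. Differences between subunits were not tested. Sdhb encodes the iron-sulfur subunit that carries electrons from the flavin towards ubiquinone (chromosome 4, 140961203 to 140979193, plus strand). It had 99.6, 104, 98.5 and 97.0 CPM in LPL overexpression replicates 1 to 4, against 79.8, 83.4 and 83.4 CPM in control replicates 1 to 3. The lowest LPL overexpression library lay well above the highest control, and the log2 fold change of 0.28 ± 0.032 (SE), edgeR adjusted p 1.77e-10 was the largest of all members and had the lowest adjusted p. Sdhc, a membrane anchor, had 85.1, 85.2, 85.1 and 86.6 CPM with LPL overexpression and 80.3, 77.9 and 80.2 CPM in controls and a log2 fold change of 0.11 ± 0.032 (SE), edgeR adjusted p 0.00519. Of the alternatives, that without control replicate 2 ended this call (edgeR adjusted p 0.0552). Sdhd, the other anchor, had 127, 133, 133 and 124 CPM with LPL overexpression and 123, 121 and 127 CPM in controls. The Sdhd groups overlapped, with a log2 fold change of 0.059 ± 0.029 (SE), edgeR adjusted p 0.0934. The Sdhd difference passed in 6 of 15 alternatives, among them those without LPL overexpression replicate 4 or control replicate 3. Sdha, the flavoprotein that oxidizes succinate, had 225, 236, 239 and 229 CPM with LPL overexpression and 231, 230.4 and 227 CPM in controls, fully overlapping. Sdha gave a log2 fold change of 0.018 ± 0.026 (SE), edgeR adjusted p 0.6003.

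Promoter stretches of 3 of these genes are shown, for Sdhb with the largest difference and for Sdha and Sdhd that did not pass, from RefSeq on GRCm38.p6, bases -120 to -1 before the RefSeq start, whose position differs somewhat from the gene ends of the files. Capitals mark matches to the NRF1 element (GCGCA, any base, then GCGC) and to CCAAT, which reads ATTGG on the other strand. Sdhc has no entry in the promoter table.
Sdhb, chr4:140961151-140961270, plus strand: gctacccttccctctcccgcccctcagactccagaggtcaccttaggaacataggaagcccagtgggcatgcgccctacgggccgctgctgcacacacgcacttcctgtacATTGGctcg
Sdha, chr13:74350241-74350360, minus strand: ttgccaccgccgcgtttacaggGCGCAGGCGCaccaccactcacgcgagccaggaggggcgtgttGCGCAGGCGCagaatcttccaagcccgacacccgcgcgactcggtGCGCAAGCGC
Sdhd, chr9:50603850-50603969, minus strand: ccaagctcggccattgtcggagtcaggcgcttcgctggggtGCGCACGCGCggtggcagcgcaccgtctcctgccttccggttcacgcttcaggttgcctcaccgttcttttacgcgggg
The stretch before Sdha, which did not pass, holds 3 NRF1 matches, that before Sdhd holds 1, and that before Sdhb, the gene with the largest difference, holds none and 1 CCAAT match.

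Complex III, the cytochrome bc1 complex, had 4 of 8 members higher and 0 lower, against 21.9% and 21.3% of all genes tested. The median log2 fold change of its members was 0.081. At an unadjusted p under 0.05 edgeR had 1 lower and DESeq2 and limma had 0, and at an adjusted p under 0.05 those tools also had 0. Uqcrq, a small subunit next to cytochrome b (chromosome 11, 53427922 to 53430831, minus strand), had 113, 109, 110.2 and 104 CPM with LPL overexpression and 93.4, 95.4 and 98.6 CPM in the control libraries. No LPL overexpression library reached down to the controls, and the log2 fold change was 0.19 ± 0.031 (SE), edgeR adjusted p 1.35e-06, a call that held in all 15 alternatives. Uqcrfs1, the Rieske iron-sulfur protein that takes electrons from ubiquinol, had 68.9, 72.4, 76.2 and 72.8 CPM with LPL overexpression and 63.2, 67.9 and 68.8 CPM in controls, groups that only just separate. Uqcrfs1 gave a log2 fold change of 0.12 ± 0.037 (SE), edgeR adjusted p 0.00452. Of the small subunits, Uqcr10 was at 98.0 ± 1.30 CPM with LPL overexpression and 91.8 ± 3.01 CPM in controls, with a log2 fold change of 0.094 ± 0.031 (SE), edgeR adjusted p 0.0110. Uqcr11 was at 53.7 ± 0.750 CPM with LPL overexpression and 49.6 ± 2.68 CPM in controls, with a log2 fold change of 0.12 ± 0.039 (SE), edgeR adjusted p 0.0131. Leaving out control replicate 1 ended the calls of Uqcrfs1 and Uqcr10 (edgeR adjusted p 0.0893 and 0.0928), and leaving out control replicate 2 ended those of Uqcr10 and Uqcr11 (up to 0.181), so that 2 complex III members were called higher in each case. Uqcrc1, a core protein of the matrix side and the least abundant per length, was at 182 ± 4.32 CPM with LPL overexpression and 185 ± 3.10 CPM in controls (log2 fold change -0.024 ± 0.026 (SE), edgeR adjusted p 0.486). Uqcrh, the hinge protein at cytochrome c1, pointed the other way without passing, with 152, 155, 154 and 152 CPM in LPL overexpression libraries and 155, 160.5 and 162 CPM in controls. Uqcrh gave a log2 fold change of -0.053 ± 0.026 (SE), edgeR adjusted p 0.0979. In the stretch before Uqcrh, shown because this gene had the lowest log2 fold change of complex III, capitals mark 1 ETS match (CCGGAAGT, here on the other strand) and 1 CCAAT.
Uqcrh, chr4:116075071-116075190, minus strand: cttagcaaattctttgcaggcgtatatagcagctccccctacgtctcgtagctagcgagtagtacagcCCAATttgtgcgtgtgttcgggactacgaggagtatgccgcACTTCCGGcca

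Complex IV, cytochrome c oxidase, had 6 members higher (54.5%) and 1 lower (9.09%) of 11 tested, against 21.9% and 21.3% of all genes tested. The median log2 fold change of its members was 0.063. Cox7c, a small transmembrane subunit (chromosome 13, 86044816 to 86046904, minus strand), had 33.9, 34.6, 34.8 and 35.5 CPM in LPL overexpression libraries, against 27.6, 30.5 and 28.8 CPM in control libraries. The groups were well apart, with a log2 fold change of 0.26 ± 0.042 (SE), edgeR adjusted p 8.75e-07. Cox7b, another small subunit, had 137, 132, 137 and 133 CPM with LPL overexpression and 119, 125 and 116 CPM in controls. All 4 LPL overexpression libraries were above all 3 controls, with a log2 fold change of 0.17 ± 0.028 (SE), edgeR adjusted p 2.04e-06. Cox7a2, the widely expressed form of subunit 7a, had 107, 105, 104 and 109.5 CPM with LPL overexpression and 91.4, 94.9 and 98.3 CPM in controls. Cox7a2 gave a log2 fold change of 0.17 ± 0.031 (SE), edgeR adjusted p 9.28e-06. Cox5b, the zinc-binding subunit of the matrix side, had 55.9, 57.7, 56.0 and 55.2 CPM with LPL overexpression and 48.9, 52.5 and 48.9 CPM in controls. Cox5b gave a log2 fold change of 0.17 ± 0.038 (SE), edgeR adjusted p 3.02e-04. All 4 of these calls held in every one of the 15 alternatives, and none of the 4 genes had overlapping groups.

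Cox7a2l, whose protein resembles subunit 7a and helps to join complexes III and IV into supercomplexes, was called lower while Cox7a2 was called higher. It had 85.4, 82.2, 86.8 and 85.3 CPM in LPL overexpression libraries and 90.7, 88.1 and 91.8 CPM in control libraries, without overlap, and a log2 fold change of -0.087 ± 0.032 (SE), edgeR adjusted p 0.0215. The call was lost in 7 alternatives, among them those without LPL overexpression replicate 2, control replicate 1 or control replicate 3, with an edgeR adjusted p of up to 0.230. Cox6a1, the second most abundant member of complex IV in TPM, rose slightly, to 208, 207, 210.0 and 213 CPM with LPL overexpression, against 200.04, 202 and 199 CPM in controls. Cox6a1 gave a log2 fold change of 0.063 ± 0.025 (SE), edgeR adjusted p 0.0354. Its call was lost in 7 alternatives, among them those without LPL overexpression replicate 3 or 4 or any 1 control replicate (edgeR adjusted p up to 0.0895). Cox4i1, Cox6b1 and Cox8a did not pass. Cox4i1 was at 229 ± 5.93 CPM with LPL overexpression and 223 ± 5.85 CPM in controls. Cox6b1 was at 139 ± 1.44 CPM with LPL overexpression and 135 ± 4.60 CPM in controls, and Cox8a at 282 ± 7.28 CPM with LPL overexpression and 282 ± 6.89 CPM in controls. Cox6a1 is shown as a raised gene whose promoter does hold NRF1 matches, 2 of them in capitals with 1 CCAAT, in bases -170 to -51.
Cox6a1, chr5:115349009-115349128, minus strand: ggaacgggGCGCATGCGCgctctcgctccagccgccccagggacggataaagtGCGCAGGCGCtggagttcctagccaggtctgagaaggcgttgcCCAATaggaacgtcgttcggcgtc

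Tissue and stress isoforms of complex IV were close to absent in both groups, and reads came almost wholly from the widely expressed forms. Cox6a2 and Cox8b, known from heart and skeletal muscle, and Cox8c, known from testis, had 0 reads in all 7 libraries. A count of 0 over a group allows up to 0.0280 CPM in LPL overexpression libraries and 0.0372 CPM in control libraries, a limit set by 3 counts and covering counting error only. Cox4i2, the form of subunit 4 known from lung, had 2 reads in all LPL overexpression libraries together and 0 in all control libraries, and Cox7b2 had 0 reads in the LPL overexpression libraries and 1 in the controls. Cox6b2, known from testis, had 15 reads in the LPL overexpression libraries and 4 in the controls. Cox7a1, the muscle form of subunit 7a, had 2 reads with LPL overexpression and 8 in controls. It made up 0.0175% ± 0.0204 of the counts of Cox7a1 and Cox7a2 together in LPL overexpression libraries, against 0.105% ± 0.0248 in control libraries (SD, n = 4 and n = 3), a difference that was not tested. Ndufa4l2, a hypoxia-induced relative of Ndufa4, had 7 reads with LPL overexpression and 2 in controls. These 8 genes had too few reads to be tested.

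Complex V, the ATP synthase, had 6 of 17 members higher (35.3%) and 0 lower, against 21.9% and 21.3% of all genes tested. The median log2 fold change of its members was 0.041. Unadjusted, edgeR put 1 of them lower at p under 0.05, whereas DESeq2 and limma put 0 lower with or without adjustment. Subunit c, which forms the rotating ring of the membrane part, is encoded by 3 genes whose mature proteins are identical. Atp5g3, the most abundant of them (chromosome 2, 73908447 to 73911326, minus strand), had 299, 313, 304 and 312 CPM in LPL overexpression replicates 1 to 4, against 284, 291 and 281 CPM in control replicates 1 to 3. The groups did not overlap and the log2 fold change was 0.11 ± 0.025 (SE), edgeR adjusted p 4.57e-04. This call held in all 15 alternatives. Atp5g1 was at 72.7 ± 1.19 CPM with LPL overexpression and 70.5 ± 0.403 CPM in controls, and did not pass (log2 fold change 0.045 ± 0.033 (SE), edgeR adjusted p 0.294). Nor did Atp5g2, at 36.6 ± 1.44 CPM with LPL overexpression and 36.5 ± 1.32 CPM in controls (log2 fold change 0.0037 ± 0.042 (SE), edgeR adjusted p 0.953). Atp5g3 supplied 73.8% ± 0.502 of the counts of the 3 genes in LPL overexpression libraries and 72.7% ± 0.511 in control libraries (SD, n = 4 and n = 3). LPL overexpression replicate 1, at 73.2%, lay below control replicate 2, at 73.3%, so these shares overlap.

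The catalytic head of ATP synthase has alpha, beta, gamma, delta and epsilon subunits. Of its 5 genes 3 were higher (60.0%) and 0 lower, against 21.9% and 21.3% of all genes tested. Atp5a1, the alpha subunit, had 627, 642, 635 and 639 CPM in LPL overexpression libraries and 590.0, 599 and 622 CPM in control libraries. Atp5a1 gave a log2 fold change of 0.075 ± 0.024 (SE), edgeR adjusted p 0.00983. Atp5b, the beta subunit that holds the catalytic sites (chromosome 10, 128083273 to 128090391, plus strand), had 1365, 1401, 1377 and 1373 CPM with LPL overexpression and 1304, 1335 and 1329.9 CPM in controls. Atp5b gave a log2 fold change of 0.060 ± 0.024 (SE), edgeR adjusted p 0.0387. Both genes had narrow groups without overlap, and the differences that passed were 1.05-fold for Atp5a1 and 1.04-fold for Atp5b. Atp5d, the delta subunit of the central stalk, was at 148 ± 2.10 CPM with LPL overexpression and 140.1 ± 4.18 CPM in controls (log2 fold change 0.082 ± 0.027 (SE), edgeR adjusted p 0.0106). The gamma gene Atp5c1 and the epsilon gene Atp5e, named after their values were seen, did not pass. Atp5c1 pointed lower (log2 fold change -0.053 ± 0.026 (SE), edgeR adjusted p 0.101) and passed as lower in 2 of 15 alternatives. Atp5e pointed higher (log2 fold change 0.051 ± 0.030 (SE), edgeR adjusted p 0.175) and passed as higher in 3. Atp5o, which encodes the OSCP subunit that joins the head to the peripheral stalk, was at 212 ± 6.41 CPM with LPL overexpression and 202 ± 2.74 CPM in controls (log2 fold change 0.068 ± 0.026 (SE), edgeR adjusted p 0.0316). Without control replicate 1, and likewise without control replicate 2, the count of complex V members called higher was 2. The edgeR adjusted p without 1 control reached 0.0936 for Atp5a1, 0.168 for Atp5b, 0.0993 for Atp5d and 0.157 for Atp5o. The call of Atp5b was also lost without LPL overexpression replicate 3, and that of Atp5o without LPL overexpression replicate 2.

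Atp5l, which encodes subunit g, was called higher at very low counts, with 4.75, 4.85, 5.31 and 5.72 CPM in LPL overexpression libraries and 3.78, 4.71 and 4.53 CPM in control libraries. Atp5l gave a log2 fold change of 0.25 ± 0.11 (SE), edgeR adjusted p 0.0498. That call was lost in 8 of 15 alternatives, including those without LPL overexpression replicate 3 or 4 or control replicate 1 or 3 (edgeR adjusted p up to 0.300). Of the 50-base words of its protein-coding transcripts in GENCODE vM21, 84.8% also occur in transcripts of 14 other genes, 12 of them pseudogenes. Over the 76 tested members the median share of such words was 2.75%, 31 members had none, and Atp5l was the single member at or above 50%. Other named genes also shared words, among them Atp5o at 47.6%, Ndufa13 at 28.5% and Cox7c at 23.0%. Of the subunit c genes, Atp5g2 had 38.3%, Atp5g1 had 11.1% and Atp5g3 had none. How reads with several hits were counted is not given in the sources used here. The level of Atp5l is therefore uncertain, and levels of the other genes that share words may be affected too. Atp5s and Atp5sl match the name rule but are not counted among the subunits of the enzyme. Atp5s was at 7.71 ± 0.354 CPM with LPL overexpression and 8.09 ± 0.775 CPM in controls, and Atp5sl at 9.14 ± 0.845 CPM with LPL overexpression and 9.62 ± 0.849 CPM in controls. Neither passed.

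Promoter letters were compared with the calls over the 66 members that matched a RefSeq promoter entry of 300 bases around the start. These include 4 members that were not tested, whereas the genes they are set against were all tested. Of these 4, 3 held CCAAT and 0 held the other motifs searched. The NRF1 element was found on either strand in 17 of 66 members (25.8%), against 11.7% of 9751 tested genes with a promoter. YY1 letters (AAGATGGC) were present in 9 of 66 (13.6%, against 5.32% of tested genes), and ETS letters (CCGGAAGT) in 5 of 66 (7.58%, against 9.31%). CCAAT occurred in 29 of 66 (43.9%, against 43.5%), and the ERR letters TCAAGGTCA in 2 of 66 (3.03%, against 0.308%). No searched motif contains another. By call, NRF1 letters were in 3 of 22 matched members that were higher, 13 of 37 that did not pass and 1 of 3 that were lower. The printed stretches show both cases, with 3 matches before Sdha, which did not pass, and 2 before Cox6a1, which was higher.

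Of 44 assembly factors tested, which build the complexes without being part of them, 13 (29.5%) were higher and 3 (6.82%) lower, against 21.9% and 21.3% of all genes tested, with a median log2 fold change of 0.081. Surf1, needed to assemble complex IV, had 29.8, 28.3, 27.0 and 27.6 CPM in LPL overexpression libraries and 22.4, 21.2 and 22.1 CPM in control libraries. Its log2 fold change of 0.36 ± 0.048 (SE), edgeR adjusted p 9.91e-09 was larger than that of any tested subunit. Foxred1, a complex I assembly factor, was at 26.1 ± 1.20 CPM with LPL overexpression and 21.8 ± 0.105 CPM in controls (log2 fold change 0.26 ± 0.049 (SE), edgeR adjusted p 1.63e-05). Cox18, which inserts a complex IV subunit into the membrane, was at 33.7 ± 1.53 CPM with LPL overexpression and 29.2 ± 1.43 CPM in controls (log2 fold change 0.21 ± 0.044 (SE), edgeR adjusted p 9.64e-05). The 3 lower ones, named after their values were seen, were Sdhaf2, which helps to attach the flavin to Sdha, and Coa7 and Ndufaf4, assembly factors of complexes IV and I. Sdhaf2 was at 55.9 ± 0.685 CPM with LPL overexpression and 61.8 ± 0.823 CPM in controls, and the log2 fold changes were -0.15 for Sdhaf2, -0.18 for Coa7 and -0.11 for Ndufaf4.

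Among carriers and partners of the chain outside the name rule, 4 of 18 were higher (22.2%) and 3 lower (16.7%), close to the 21.9% and 21.3% of all genes tested. Cyc1, cytochrome c1 of complex III, was at 143 ± 1.81 CPM with LPL overexpression and 134 ± 3.26 CPM in controls (log2 fold change 0.092 ± 0.027 (SE), edgeR adjusted p 0.00411). Cycs, the mobile cytochrome c, was at 55.8 ± 0.817 CPM with LPL overexpression and 50.9 ± 2.42 CPM in controls (log2 fold change 0.13 ± 0.038 (SE), edgeR adjusted p 0.00387). Both cytochrome genes were higher. Etfa, which brings electrons from fatty acid oxidation towards ubiquinone, was higher, at 95.9 ± 4.89 CPM with LPL overexpression and 86.0 ± 1.30 CPM in controls (log2 fold change 0.16 ± 0.034 (SE), edgeR adjusted p 1.12e-04). Gpd2, the mitochondrial glycerol-3-phosphate dehydrogenase, was lower, with 116, 116, 109 and 112 CPM in LPL overexpression libraries and 133, 134 and 134 CPM in controls. Gpd2 gave a log2 fold change of -0.24 ± 0.028 (SE), edgeR adjusted p 4.06e-10. Coq9, which takes part in making ubiquinone, was higher at 20.9 ± 1.41 CPM with LPL overexpression and 17.9 ± 1.39 CPM in controls, with overlapping groups (log2 fold change 0.23 ± 0.058 (SE), edgeR adjusted p 0.00122). Coq5, an enzyme of the same pathway and named after its values were seen, was lower, with a log2 fold change of -0.16 ± 0.042 (SE), edgeR adjusted p 0.00124. Ndufab1, the acyl carrier protein to which Ndufa6 binds, was also called lower, at 38.8 ± 0.799 CPM with LPL overexpression and 41.5 ± 0.449 CPM in controls (log2 fold change -0.097 ± 0.039 (SE), edgeR adjusted p 0.0423). It is named after its values were seen.

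TCA cycle enzymes supply the NADH and succinate. The TCA cycle list, which also holds the pyruvate dehydrogenase genes Pdha1, Pdhb, Dlat and Pdhx, had 3 of 18 higher (16.7%) and 1 lower (5.56%). The lower one was Pdhb, named after its values were seen. Over all genes tested, 21.9% were higher and 21.3% lower. The median log2 fold change of the list was -0.0014. Pdha1, the alpha subunit of pyruvate dehydrogenase, had 164, 165, 162 and 158 CPM with LPL overexpression and 118, 119 and 125 CPM in controls, far apart. Pdha1 gave a log2 fold change of 0.42 ± 0.028 (SE), edgeR adjusted p 1.00e-18. Ogdh, of the 2-oxoglutarate dehydrogenase complex, was at 249 ± 9.41 CPM with LPL overexpression and 219.6 ± 1.53 CPM in controls (log2 fold change 0.18 ± 0.027 (SE), edgeR adjusted p 1.54e-07). Fh1, fumarase, which takes up the product of succinate dehydrogenase, was at 144 ± 4.71 CPM with LPL overexpression and 131 ± 2.22 CPM in controls (log2 fold change 0.13 ± 0.028 (SE), edgeR adjusted p 1.03e-04).

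Of the 13 subunits encoded by mitochondrial DNA, 7 could be tested, 2 being higher and 1 lower (28.6% and 14.3%, against 21.9% and 21.3% of all genes tested). mt-Nd1, of complex I, was at 3579 ± 166 CPM with LPL overexpression and 3083 ± 57.1 CPM in controls (log2 fold change 0.22 ± 0.028 (SE), edgeR adjusted p 2.01e-08). mt-Nd2, of the same complex, was at 1754 ± 58.1 CPM with LPL overexpression and 1595 ± 46.4 CPM in controls (log2 fold change 0.14 ± 0.026 (SE), edgeR adjusted p 2.11e-05). mt-Co1, the catalytic subunit of complex IV, was lower, at 7027 ± 175 CPM with LPL overexpression and 7523 ± 201 CPM in controls (log2 fold change -0.098 ± 0.026 (SE), edgeR adjusted p 0.00184). The other 6, mt-Co2, mt-Co3, mt-Atp6, mt-Atp8, mt-Nd3 and mt-Nd4l, are listed at 0 counts in all 7 libraries, and no level is given for them. The 13 subunit genes, 6 of them at 0 counts, made up 2.20% to 2.34% of counts with LPL overexpression and 2.13% to 2.22% in controls. These ranges overlap. Mitochondrial rRNA and tRNA genes are not part of this share.

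Of 15 genes listed for the regulation of mitochondrial biogenesis, 2 were higher and 2 lower (13.3% each way), and 11 did not pass. Over all genes tested, 21.9% were higher and 21.3% lower. The list also holds Polg and Polg2, subunits of the mitochondrial DNA polymerase, which are not regulators of chain genes. Ppargc1a, the coactivator PGC-1alpha that is known to raise oxidative genes, had 2.40, 2.27, 2.62 and 2.19 CPM in LPL overexpression libraries, against 0.333, 0.507 and 0.652 CPM in control libraries. These levels rest on 253 reads with LPL overexpression and 40 in controls. All 4 LPL overexpression libraries were above all 3 controls, and the log2 fold change was 2.24 ± 0.21 (SE), edgeR adjusted p 8.08e-13, at a level that stayed low. Tfam, which packages and transcribes mitochondrial DNA, was higher, at 57.7 ± 0.163 CPM with LPL overexpression and 51.1 ± 1.79 CPM in controls (log2 fold change 0.17 ± 0.037 (SE), edgeR adjusted p 1.18e-04). Yy1 and Gabpa, whose proteins are known to bind promoters of subunit genes, were lower. Yy1 was at 67.6 ± 3.20 CPM with LPL overexpression and 74.5 ± 2.46 CPM in controls (log2 fold change -0.14 ± 0.036 (SE), edgeR adjusted p 0.00105). Gabpa was at 99.2 ± 2.82 CPM with LPL overexpression and 106 ± 1.57 CPM in controls (log2 fold change -0.089 ± 0.030 (SE), edgeR adjusted p 0.0132). Nrf1, which encodes the factor of the element searched above, was at 52.8 ± 0.981 CPM with LPL overexpression and 51.8 ± 0.923 CPM in controls (log2 fold change 0.029 ± 0.037 (SE), edgeR adjusted p 0.567). Esrra, an estrogen-related receptor, was at 35.9 ± 2.12 CPM with LPL overexpression and 35.5 ± 2.91 CPM in controls (log2 fold change 0.013 ± 0.049 (SE), edgeR adjusted p 0.855). Neither passed.

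**Figure D5:**
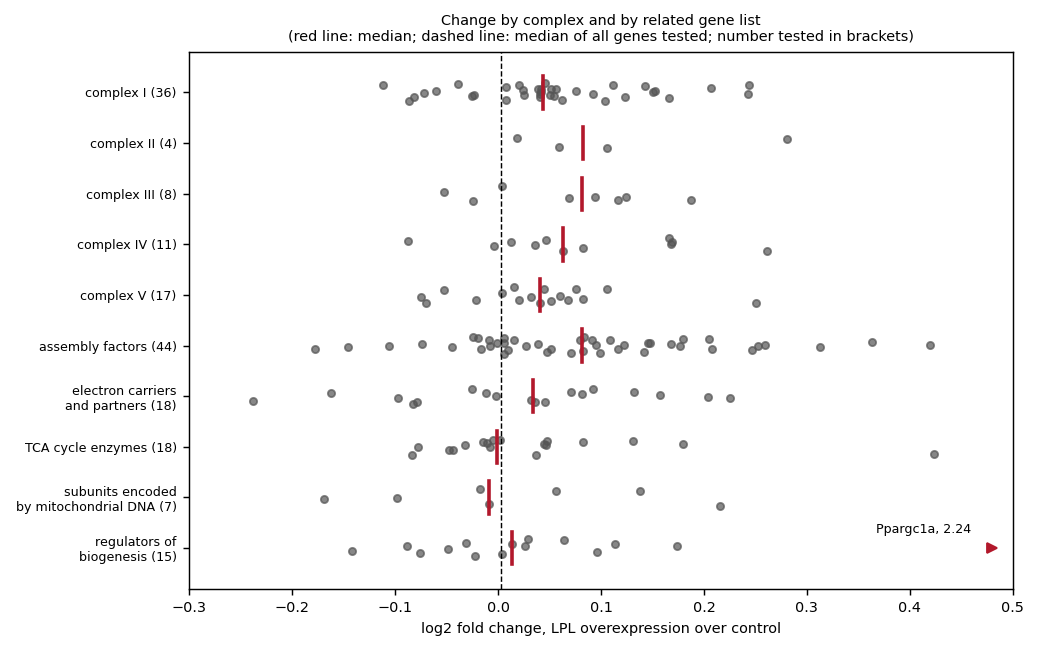
Log2 fold change (x axis, LPL overexpression over control) of the tested genes of complexes I to V and of 5 related lists (rows), with each list's median in red and the median of all genes tested as a dashed line. Medians of the complexes lie between 0.041 and 0.082, the TCA cycle list lies at -0.0014, and Ppargc1a at 2.24 is drawn at the edge.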

How the data were processed

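RNA sequencing of total RNA from 4 LPL overexpression and 3 control libraries was analysed from the deposited tables, which list 49585 genes each. Per the submitters' processing notes the authors aligned reads with STAR to mm10; no version and no annotation release is given in the sources used here. Per the labels' protocols the libraries came from a stranded TruSeq total-RNA kit. The deposited counts are whole numbers per gene and read orientation, per the file headers, and reads in reverse orientation (97.0% to 97.1% of oriented reads) were used. The authors' TPM values, which sum to 1000000 over all genes, were used for levels per length. The authors' FPKM values and a second TPM set, treated as a score because it sums to more, were not used.

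Sample titles gave the groups and the replicate numbers. Counts were tested in R 4.3.3 by edgeR 4.0.16 (glmQLFit, robust, and glmQLFTest), after TMM scaling and filterByExpr, with group as the only term. Benjamini-Hochberg adjustment covered the 13639 genes that passed the filter, and an adjusted p under 0.05 was called. Standard errors were taken from the log2 fold change and its F statistic. The script was tested on simulated counts with 200 changed genes. Alternatives used DESeq2 1.42.0, limma 3.58.1 on log2(TPM + 0.5), other scalings, no low-count filter, reads of both orientations, a replicate block and each library left out. The replicate block left out LPL overexpression replicate 4, which has no control of the same number. No 2 libraries agreed within sampling noise.

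The members and the gene lists were chosen with earlier results of these data known. One gene is counted but not reported here. Named genes are, in each complex, the 4 with the lowest adjusted p, any called lower, the 2 most and the 1 least abundant, all complex II subunits and all isoform sets, plus the 3 list genes with the lowest adjusted p and 7 regulators and cytochromes. Promoters came from RefSeq (GRCm38.p6), where 66 of 84 members matched, and transcripts from GENCODE vM21. Gene coordinates, 1-based, are as deposited, on mm10.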

Additional observations from a re-analysis of the deposited data

Results flagged for a closer look

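Among the 4 LPL overexpression libraries, the highest and the lowest level of each tested member and of the summed complexes were set against the other 3. In 7 of 82 levels examined, 1 library stood far from its nearest neighbour relative to the range of the group, where chance flags about 1 in 20. LPL overexpression replicate 2 was high in Ndufb7, a complex I accessory subunit, at 74.1 CPM with the nearest library at 69.2 CPM. The same library was high in Atp5o, at 221 CPM with the nearest at 209.6 CPM, and in Atp5g2, at 38.7 CPM with the nearest at 36.1 CPM. LPL overexpression replicate 4 was low in Ndufc2, a complex I accessory subunit, at 79.1 CPM with the nearest at 82.6 CPM, and in Uqcr10, at 96.1 CPM with the nearest at 98.4 CPM. It was high in Sdhc, at 86.6 CPM with the nearest at 85.2 CPM, and in Cox4i1, at 238 CPM with the nearest at 226 CPM. Atp5o, Uqcr10 and Sdhc are called higher, and of these the Atp5o call was lost without LPL overexpression replicate 2 (edgeR adjusted p 0.0974). The calls of Uqcr10 and Sdhc held without LPL overexpression replicate 4.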

How the results depend on the processing

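Members called higher numbered 26 to 35 under the other tests, filters and scalings apart from library size alone, which gave 44 against 28, and 19 to 29 when 1 library was left out. Library size alone also gave 18 against 10 in complex I and 10 against 6 in complex V. With 1 library left out, the higher counts were 9 to 12 in complex I, 1 to 3 in complex II, 2 to 4 in complex III, 4 to 6 in complex IV and 2 to 6 in complex V. Members called lower fell to 0 under DESeq2, upper-quartile scaling and library size alone, in all and in complexes I and IV. At an unadjusted p under 0.05 these gave 3, 2 and 0 lower in all. Limma on log2(TPM + 0.5) gave 1 lower in all, 1 in complex I and 0 in complex IV, and dropping the low-count filter gave 1 in complex I. With 1 library left out the lower counts were 1 to 3 in all, 0 to 2 in complex I, 0 to 1 in complex IV and 0 to 1 in complex V. The cause was not tested. The median log2 fold change of members, 0.049, became 0.071 with upper-quartile scaling, 0.088 with library size alone, 0.075 with limma, and 0.040 to 0.067 with 1 library left out. The median of all genes, 0.0024, became 0.025, 0.042 and 0.027 in the first 3 of these, and members moved by about as much. Members lay 0.046 above all genes with TMM scaling in edgeR and 0.031 to 0.059 above them in the 15 alternatives. Deviations of same-numbered libraries correlated at -0.019, -0.039 and 0.019. These values show no pairing by replicate number, but they cannot exclude it, since counting noise could hide a weak one. A replicate block, fitted without LPL overexpression replicate 4, gave 27 higher and 2 lower, 1 of the lower ones in complex I. Leaving out that library without a block gave the same counts. Over 36 named members, 476 of 540 alternative values kept direction and side of the threshold, 52 lost the threshold, 12 gained it and 0 reversed. The low-count filter left 8 isoforms with few or no reads untested, and Atp5l was called on few counts.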
